A study of Rattus norvegicus with 24 samples.

Results

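The microRNA described here is rno-miR-21, the guide strand of the rat Mir21 hairpin. It was taken as the 1 entry of the array, of 677 rat miRNAs, whose name is exactly rno-miR-21 and which is not a control spot. The arrays measured the miRNAs in peripheral blood mononuclear cells (PBMC), the lymphocytes and monocytes that float above a Ficoll density gradient, from female Wistar rats whose age is not given. The 24 one-colour Agilent arrays fall into 12 groups of 2, and every array carried blood of a different rat, since the animals were killed after the blood was drawn. Healthy rats (NOCIA, called NORA in the labels) and rats with collagen-induced arthritis (CIA, called RA), a model of rheumatoid arthritis made by immunisation with bovine type II collagen in adjuvant, were bled before any therapy. Other rats of NOCIA and of the 4 arthritic arms were bled at 1 hour and at 34 days. The arms were mechanical stimulation by insertion and rotation of a subcutaneous needle (MS, called AP), methotrexate injected into the peritoneum (MTX), saline injected in the same way (PLA), and anaesthesia by isoflurane in place of ether with no other therapy (ANE). All rats had been shaved. The labels of NOCIA at 34 days are inconsistent, since 1 description line says 1 hour, and the time of the title, 34 days, was used.

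MicroRNAs are short RNAs cut out of a folded precursor by Drosha and Dicer. They are carried by Argonaute proteins to messenger RNAs that pair with the seed, the stretch near the 5′ end of the guide. miR-21 is among the most abundant miRNAs of leukocytes and of many tumours. Its gene is switched on by STAT3, AP-1 and NF-κB, factors of the inflammatory response, and its known targets include Pdcd4, an inhibitor of translation that also shapes the macrophage response to bacterial products.

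The sequences are given because the array measured both strands of the hairpin separately, the guide as rno-miR-21 and the passenger as rno-miR-21*. They come from RefSeq (build GRCr8), which calls these strands rno-miR-21-5p and rno-miR-21-3p. The seed (bases 2 to 8) is in capitals.

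rno-miR-21-5p: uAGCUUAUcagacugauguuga

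rno-miR-21-3p: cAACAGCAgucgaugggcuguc

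Both strands lie in the precursor below, on the minus strand of chromosome 10 (chr10:71902600-71902691), where the guide is bases 18 to 39 and the passenger bases 56 to 77 of 92, both in capitals.

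Mir21 hairpin: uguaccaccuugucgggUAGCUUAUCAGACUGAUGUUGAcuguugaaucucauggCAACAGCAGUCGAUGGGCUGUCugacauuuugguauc

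The guide occupies chr10:71902653-71902674 and the passenger chr10:71902615-71902636. RefSeq annotates Mir21 as a miRNA gene of its own, and the one other gene it lists within 5000 bases is the protein-coding gene Vmp1. None of the 724 mature rat miRNAs in the RefSeq table comes from another gene and carries the seed AGCUUAU, so no second miRNA of the array was grouped with miR-21 by seed.

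Each array carried rno-miR-21 on 2 probes of 10 spots each. miR-21 was detected on 24 of 24 arrays, and none of its spots was saturated. The median spot of the brighter probe, A_26_P00001210, was 474 to 2074 times as bright as its local background. The signal of A_26_P00001210 was 1.83 to 2.72 times that of A_26_P00001211 (median 2.15), and the lowest of these ratios was on MS at 34 days replicate 1. Within an array the 10 spots of the brighter probe varied by 3.92% to 13.6% (coefficient of variation).

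miR-21 was the brightest miRNA of the array on 21 of 24 arrays, ranked by total gene signal, the summed and background-subtracted intensity that Feature Extraction gives each miRNA. On the other 3 arrays it came second behind miR-451, a miRNA of the red blood cell lineage. These were 1 array each of NOCIA at 1 hour, MTX at 34 days and ANE at 34 days. miR-451 took between 1.10% and 15.6% of the detected signal. Brightness ranks depend on each probe's affinity as well as on abundance, so the rank is that of a signal and not of a number of molecules.

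The total gene signal of miR-21, unscaled, ran from 16725 to 56859 intensity units over the 24 arrays (median 24041), a 3.40-fold range. As a share of the summed signal of all detected miRNAs on the same array, it ran from 9.29% to 16.2% (median 12.3%), a 1.74-fold range. The unscaled signal was lowest in NOCIA before therapy, at 17277 and 16725, where the shares were 12.6% and 12.1%. CIA before therapy gave 21033 and 21726, with shares of 12.6% and 13.3%. Both arrays of CIA thus lay above both arrays of NOCIA in signal, by 1.26-fold of the means, and their mean share was 0.577 percentage points higher. The summed signals of all detected miRNAs were also higher in CIA, at 167322 and 163860 against 137544 and 138064 in NOCIA. How many other miRNAs separated these arrays in the same way was not counted.

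At 1 hour the 2 arrays of a group were often far apart. NOCIA gave 23402 and 17267, with shares of 14.8% and 9.45%. MS gave 35641 and 27728, and here the array with the higher signal had the lower share, 9.61% against 14.9%. MTX gave 25020 and 19749 (12.6% and 13.9%), and PLA gave 24680 and 22286 (11.9% and 9.93%). ANE held the second highest mean signal of the 12 groups, with 27089 and 43390, and also the highest single share, 16.2% beside 13.1%.

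At 34 days MS stood apart in signal. Its arrays gave 56859 and 42356, the first above every other array, and MTX followed with 38511 and 20129. In NOCIA the signal was 21266 and 25154, in ANE 28813 and 16826, and in PLA 19676 and 26525. In shares MS did not stand apart. The MS arrays had 10.9% and 13.9%, inside the range set by PLA (10.3% and 14.6%), while MTX had 12.7% and 10.3%, ANE 12.1% and 9.29%, and NOCIA 10.3% and 11.1%.

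**Figure D1:**
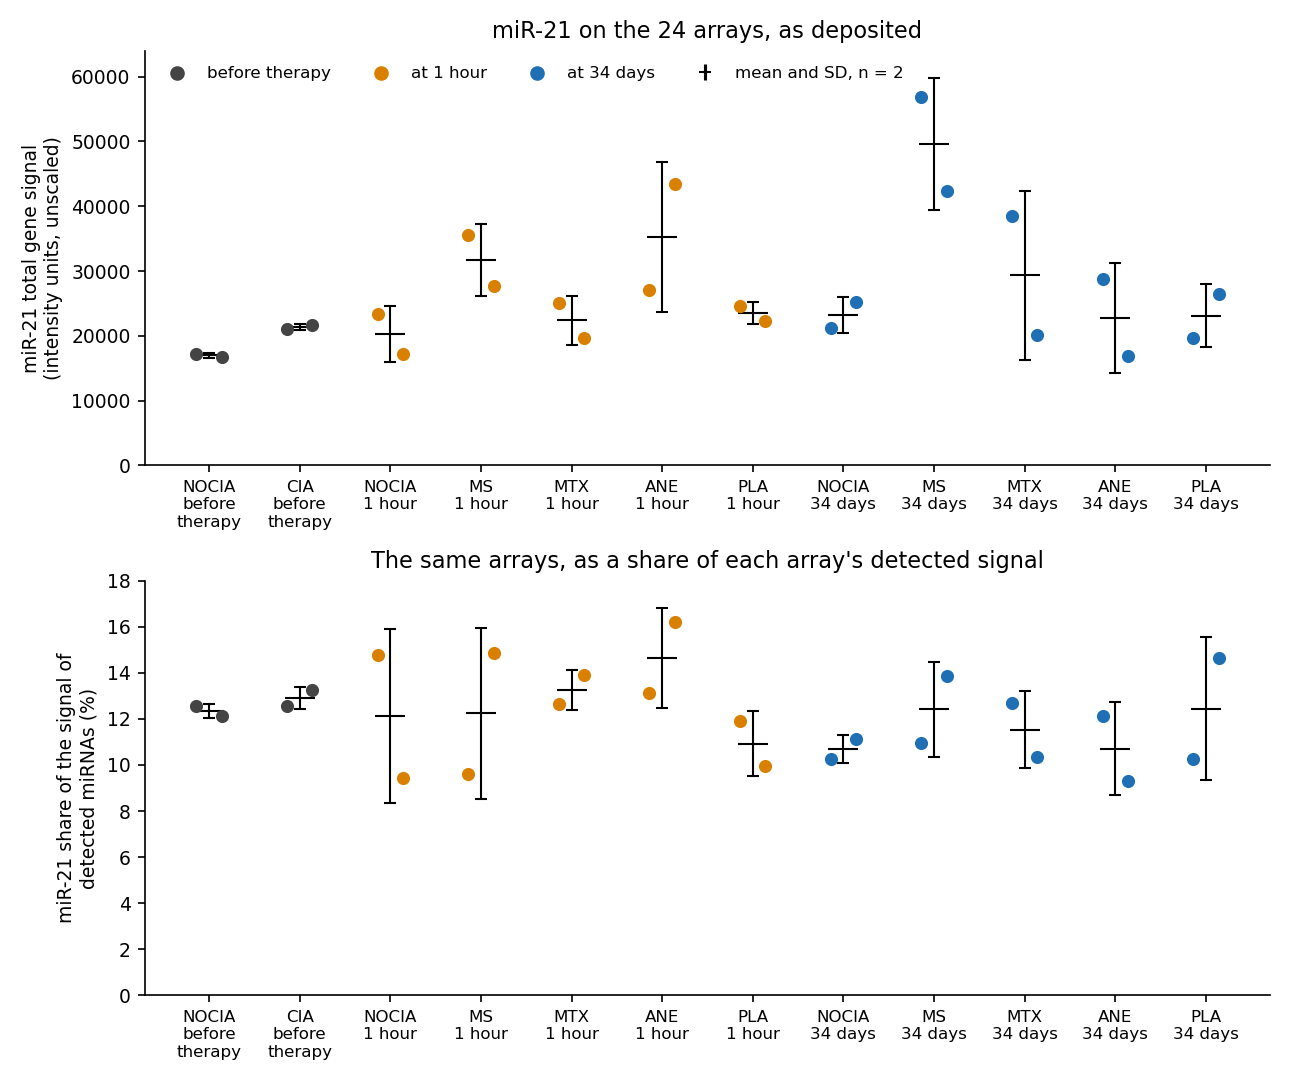
Signal of miR-21 on each array (points, intensity units, upper panel) and its share of the summed signal of detected miRNAs on that array (points, percent, lower panel) in the 12 groups, with the mean and SD of 2 arrays. MS at 34 days is highest in the upper panel, at 56859 and 42356, and lies within the spread of the other groups in the lower panel, at 10.9% and 13.9%.

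The arrays with a high miR-21 signal were those with a high summed signal. The sum over detected miRNAs ran from 137544 to 519917 intensity units, and MS at 34 days replicate 1, the array with the highest miR-21 signal, also had the highest sum. The next highest sum, 371061, was on MS at 1 hour replicate 1. The number of detected miRNAs ran from 145 to 207.

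**Figure D2:**
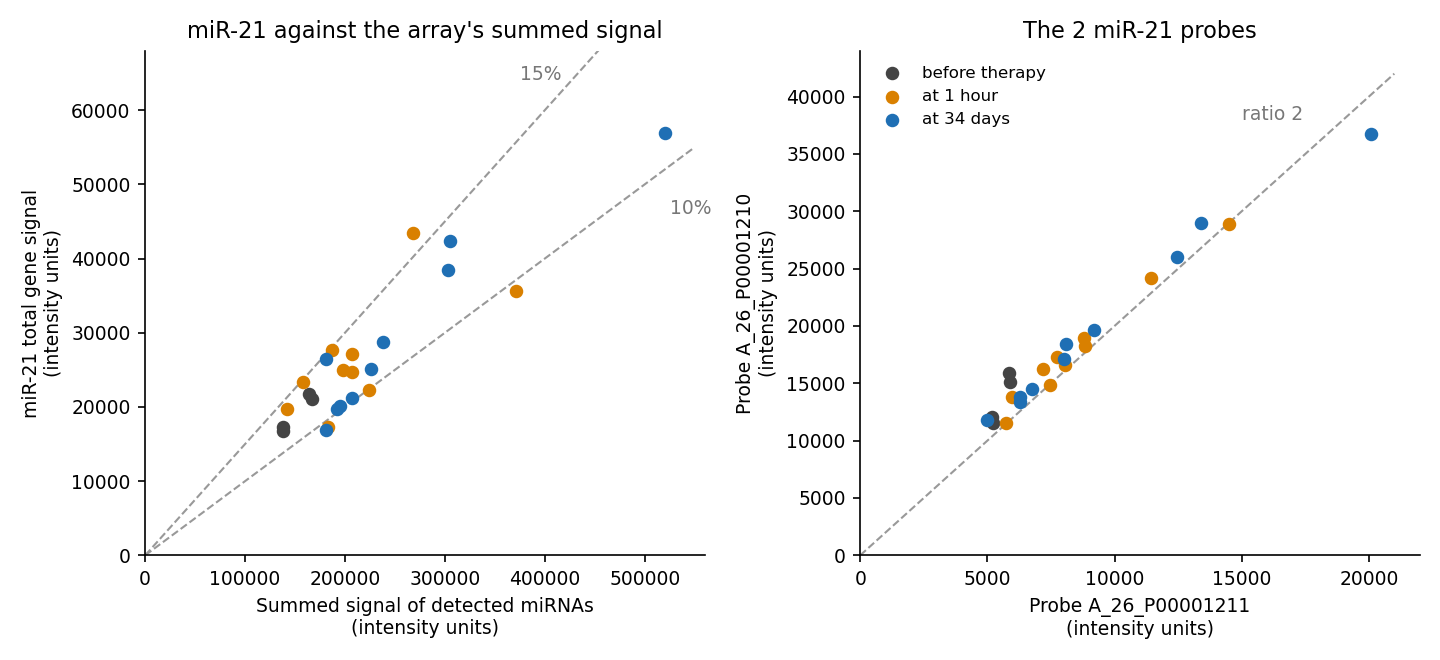
Left, miR-21 signal against the summed signal of detected miRNAs on each of the 24 arrays (intensity units), with lines at shares of 10% and 15%. Right, the signals of both miR-21 probes against each other, with a line at a ratio of 2. Most arrays lie between the share lines, and the array at the far right of the left panel is MS at 34 days replicate 1.

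To compare groups, the arrays were brought to a common 75th percentile of the 132 miRNAs that every array detected, and log2 was taken. On this scale the group means of miR-21 spanned 0.55, from 14.32 ± 0.61 (SD, n = 2) in MS at 1 hour to 14.87 ± 0.33 in ANE at 1 hour. Below ANE at 1 hour came MS at 34 days with 14.66 ± 0.12, CIA before therapy with 14.66 ± 0.10, MTX at 1 hour with 14.64 ± 0.034, NOCIA at 1 hour with 14.62 ± 0.39 and PLA at 34 days with 14.60 ± 0.39. The lower part of the order held NOCIA before therapy with 14.46 ± 0.011, ANE at 34 days with 14.45 ± 0.19, MTX at 34 days with 14.45 ± 0.18, PLA at 1 hour with 14.36 ± 0.25, NOCIA at 34 days with 14.32 ± 0.067 and last MS at 1 hour. None of the 11 pairs of neighbours in this order differed by more than the spread of their own replicates, and the arrays of every neighbouring pair overlapped. Neighbours in an order sorted by the same means lie close by construction, so this cannot show whether groups differ. The 2 arrays of a group differed by 0.016 (NOCIA before therapy) to 0.86 (MS at 1 hour). Across the 24 arrays the scaled level ran from 13.89, on MS at 1 hour replicate 1, to 15.10, on ANE at 1 hour replicate 2.

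The test of any difference among the 12 groups gave F = 0.73 with an adjusted p of 0.773 (limma, Benjamini-Hochberg over the 210 miRNAs detected on at least 3 arrays). By that test 2.38% of the 210 miRNAs were called, that is, had an adjusted p under 0.05, and the F of miR-21 was the 188th from the top. The residual SD of miR-21 was 0.28 on the log2 scale, against a median of 0.35 over the 210 miRNAs.

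The effect of arthritis was asked of the animals before therapy. The scaled level of miR-21 was 14.73 and 14.59 in CIA and 14.47 and 14.45 in NOCIA, a difference of 0.20 (95% interval −0.40 to 0.79, adjusted p = 0.944), where 0.952% of the 210 miRNAs were called. Against NOCIA at 34 days (14.28 and 14.37), the arthritic ANE arm at 34 days (14.58 and 14.31) differed by 0.12 (−0.47 to 0.72, adjusted p = 1) with 0% called. Against NOCIA at 1 hour (14.90 and 14.35), PLA at 1 hour (14.54 and 14.19) differed by −0.26 (−0.86 to 0.33, adjusted p = 0.990), also with 0% called. miR-21 passed the test in none of these comparisons of arthritic with healthy animals, each made within 1 slide. The ANE animals had isoflurane and the PLA animals a saline injection, so in their comparisons arthritis and arm cannot be told apart.

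The therapies were compared with PLA at the same time, again within 1 slide. PLA was the placebo for MTX, a saline injection, and no sham for the needle of MS. In MS against PLA, stimulation and injection cannot be told apart. At 1 hour MS (13.89 and 14.75) differed from PLA by −0.042 (−0.64 to 0.55, adjusted p = 1), with 0.952% of miRNAs called. The MS arrays lay on both sides of the PLA arrays. MTX at 1 hour (14.62 and 14.67) lay above both PLA arrays, by 0.28 (−0.31 to 0.88, adjusted p = 0.884), with 0% called. At 34 days MS (14.58 and 14.75) differed from PLA (14.33 and 14.88) by 0.060 (−0.53 to 0.66, adjusted p = 0.918), and both MS arrays fell between the PLA arrays. MTX at 34 days (14.57 and 14.32) differed from PLA by −0.16 (−0.75 to 0.44, adjusted p = 0.922) and MS from MTX by 0.22 (−0.38 to 0.81, adjusted p = 0.637). In each of the 3 comparisons at 34 days 0% of the 210 miRNAs were called.

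Animals bled later were also compared with those bled before therapy. The differences from CIA before therapy at 1 hour were −0.34 in MS (adjusted p = 0.602, 0% called), −0.015 in MTX (adjusted p = 1, 1.43% called), 0.21 in ANE (adjusted p = 0.656, 0.476% called) and −0.30 in PLA (adjusted p = 0.651, 0.952% called). At 34 days they were 0.0058 in MS (−0.59 to 0.60, adjusted p = 1), −0.21 in MTX, −0.21 in ANE and −0.054 in PLA, with adjusted p-values of 0.790 to 1 and 0% called in the last 3. MS at 34 days against CIA had the most calls, 19.0% of the 210 miRNAs, and there miR-21 was 1.00 times its level in CIA (95% interval 0.665 to 1.52). The 40 calls became 103 without replicate 2 of MS at 34 days and 0 without its replicate 1, when limma left 19 miRNAs at an unadjusted p under 0.05. They became 1 and 0 without the first or the second CIA array, with 71 and 65 at an unadjusted p under 0.05. NOCIA changed by 0.16 to 1 hour (adjusted p = 0.995, 2.38% called) and by −0.14 to 34 days (adjusted p = 0.920, 0.952% called). The change of MS to 34 days exceeded that of NOCIA by 0.14 (−0.70 to 0.98, adjusted p = 0.833, 0.476% called). Comparisons with CIA before therapy share its 2 arrays.

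In all, miR-21 passed the test in 0 of 19 comparisons and had an unadjusted p under 0.05 in 0 of 19, with differences from −0.34 to 0.28. In the 10 comparisons in which limma called 0 of 210 miRNAs, 4 to 84 miRNAs had an unadjusted p under 0.05. The 95% interval of a difference between 2 groups reached 0.60 to either side on the log2 scale, a factor of 1.51. With 2 arrays per group, observed differences of miR-21 smaller than that could not be called. The interval is not adjusted for the 210 miRNAs while a call is, so larger differences could also stay uncalled. Of the 18 comparisons between groups, 10 lay within 1 slide. In the other 8, slide and group cannot be told apart. These were NOCIA at 1 hour against before therapy and the 4 arthritic arms at 1 hour against CIA. MS, MTX and PLA at 34 days against CIA were the others. The change of MS against that of NOCIA also spanned slides. MS at 34 days lay on slide 1 and CIA before therapy on slide 2. The scaled means of the 8 arrays on slides 1, 2 and 3 were 14.65, 14.47 and 14.49. Their unscaled mean signals were 34317, 21102.5 and 24471.7.

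The value of MS at 34 days depended on the scaling. Without scaling, miR-21 was 1.20 higher than in CIA before therapy (adjusted p = 0.0107), with log2 values of 15.80 and 15.37 in MS against a mean of 14.38 in CIA. In that fit, however, 62.9% of the 210 miRNAs were called and the median of all 210 differences was 1.32, above that of miR-21, which ranked 114th. MS at 34 days and CIA lay on different slides, so slide and group cannot be told apart in that fit. Against PLA at 34 days, on the slide of MS, the unscaled difference of miR-21 was 1.10 (adjusted p = 0.0201), with 59.0% called and a median of 1.13. Relative to that median miR-21 differed by −0.12 from CIA and by −0.030 from PLA.

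**Figure D3:**
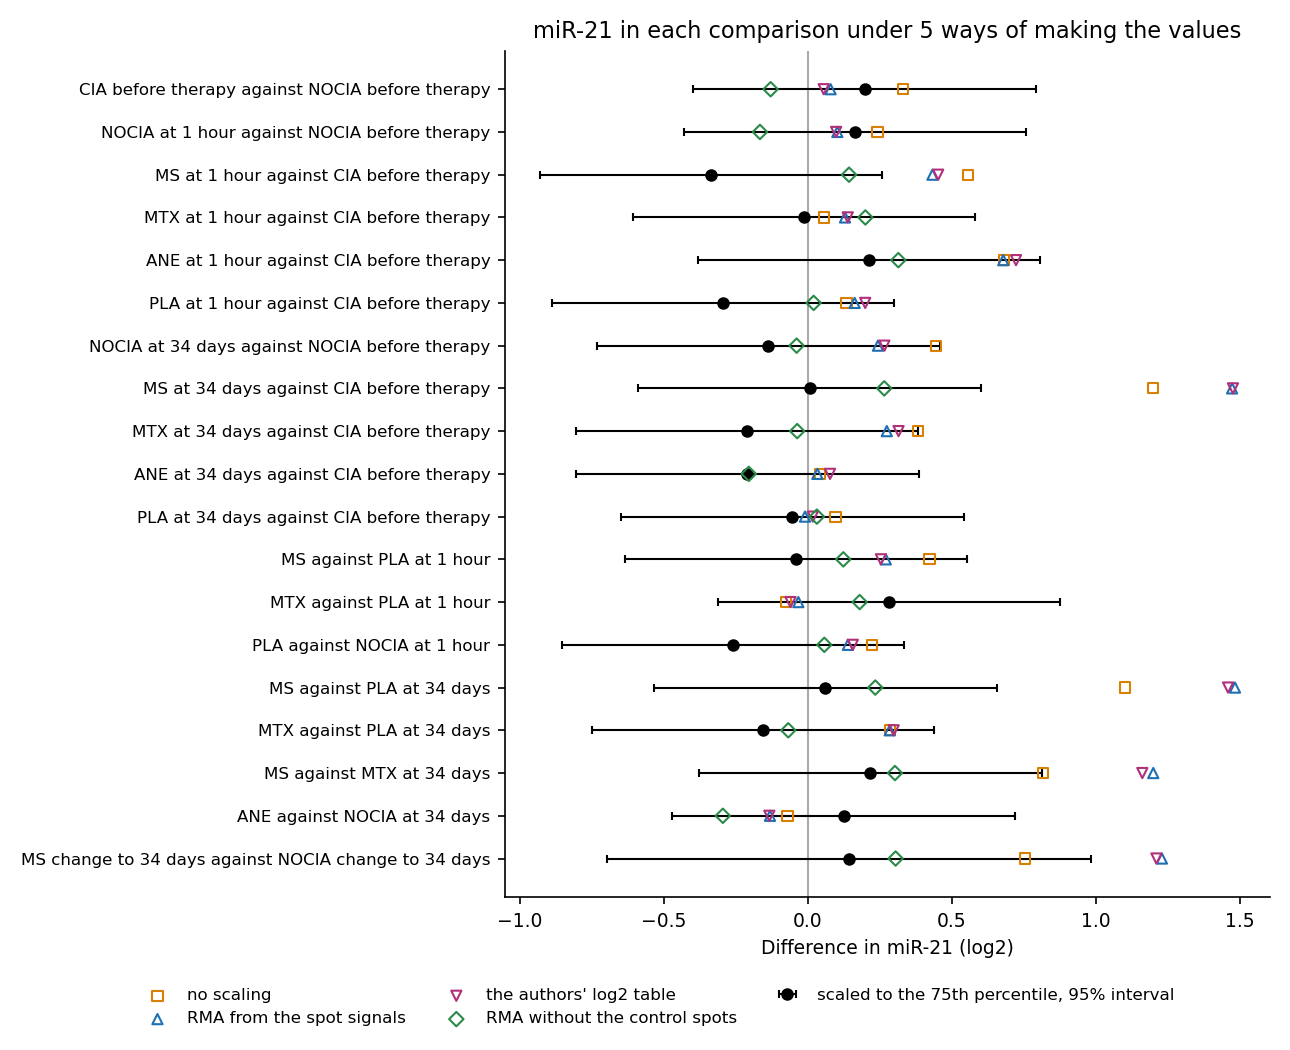
Difference of miR-21 (log2) in the 19 comparisons, from values scaled to the 75th percentile with 95% intervals (black), from unscaled values, from RMA values with and without the control spots, and from the authors' log2 table. The black intervals all include 0, and the open symbols leave them most in MS at 34 days against CIA and against PLA, where the authors' table gave 1.48 and 1.46.

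The authors' own log2 table placed miR-21 differently. It gave 15.96 for MS at 34 days replicate 1 and at most 14.60 for each of the other 23 arrays, MS at 34 days replicate 2 among them with 14.53. From this table miR-21 was 1.48 higher in MS at 34 days than in CIA before therapy (SE 0.38, adjusted p = 0.0367), with 33.3% of the 210 miRNAs called and a median difference of 0.22, so that miR-21 had the 7th largest rise. Against PLA at 34 days the difference was 1.46 (adjusted p = 0.0607, 0% called). RMA values rebuilt from the deposited spots, that is, background correction, quantile normalization over all spots and median polish, came within 0.056 of the authors' value of miR-21 on every array. They gave 1.47 against CIA (adjusted p = 0.0321, 39.5% called) and 1.48 against PLA (adjusted p = 0.0513, 0% called).

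These differences were smaller without 1 of the 2 MS arrays. Without MS at 34 days replicate 1, the difference from CIA was 0.76 in the authors' table (adjusted p = 0.432), 0.76 by RMA (adjusted p = 0.405) and 0.99 without scaling (adjusted p = 0.159). Without replicate 2 it was 2.19, 2.19 and 1.41, with adjusted p-values of 0.00173, 0.00107 and 0.0109. On the values scaled to the 75th percentile, replicate 1 lay at 14.58 and replicate 2 at 14.75, and leaving out either one moved the difference only to 0.094 or −0.082.

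The spots brighter than miR-21 differed between that array and the others. Each array held 14255 spots, of which 715 were controls. On 23 arrays, 20 to 77 control spots were brighter than the median spot of probe A_26_P00001210, and on MS at 34 days replicate 1 none was. The control spots named hur_2, which were among the brightest, had a median of 20037 on that array and 47060 to 172528 on the other 23. In quantile normalization over all spots a value depends on the rank of its spot, control spots included. A setting added after seeing the data left out the control spots before quantile normalization. There RMA gave miR-21 log2 values of 14.10 and 14.25 in MS at 34 days. By limma the difference was 0.27 from CIA (adjusted p = 0.351, 27.1% called) and 0.23 from PLA (adjusted p = 0.388, 0% called). Both MS values lay below the highest value of the other groups, 14.2555, but MS replicate 2 only just, at 14.2462. The median of all 210 differences from CIA was 0.22.

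**Figure D4:**
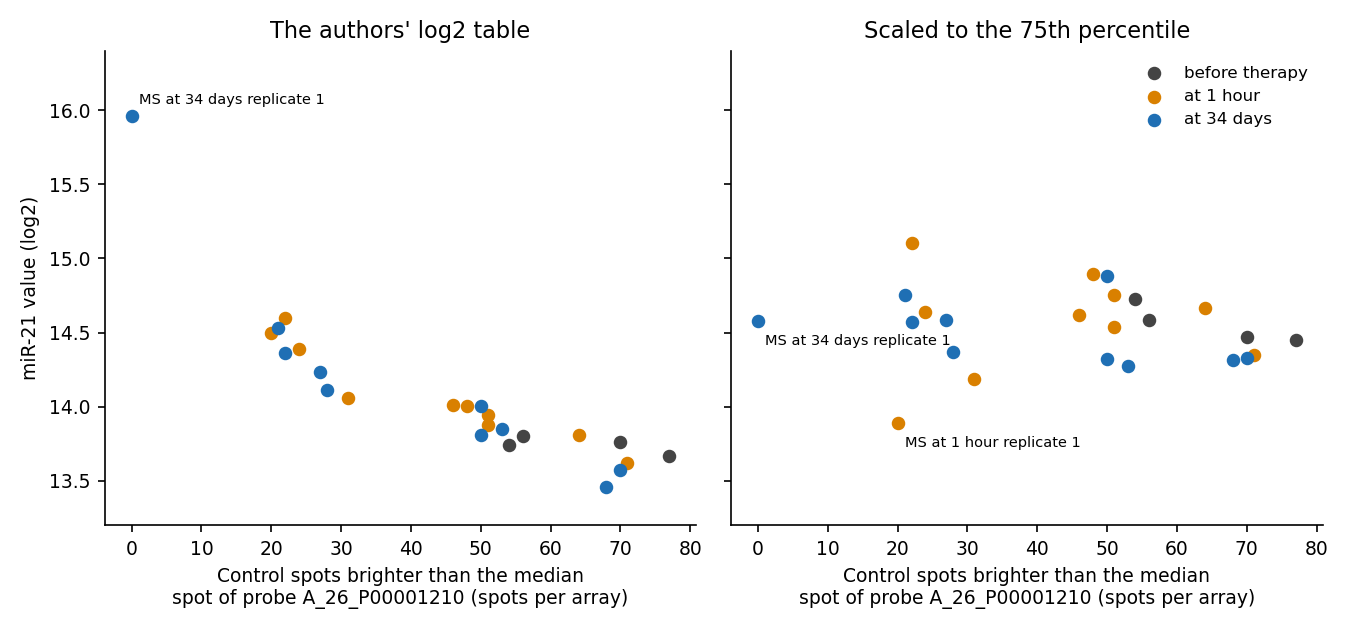
Value of miR-21 (log2) on each of the 24 arrays in the authors' table (left) and after scaling to the 75th percentile (right), against the number of control spots on that array brighter than the median spot of its brighter probe. MS at 34 days replicate 1, with 0 such spots, is at 15.96 on the left, above the other 23 arrays, and at 14.58 on the right, within their range.

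The passenger strand, rno-miR-21*, was dim. It was detected on 19 of 24 arrays, with signals of 6.95 to 46.4 intensity units where detected. It was not detected on either array of NOCIA before therapy, while both arrays of CIA gave 27.5 and 22.5, unscaled. Those NOCIA arrays also had the fewest detected miRNAs of all arrays, 148 and 145. Their summed signals, 137544 and 138064, were the lowest. How many other miRNAs were detected on both CIA arrays and on neither of these NOCIA arrays was not counted. The passenger strand was also not detected on replicate 1 of MS at 1 hour, of ANE at 1 hour and of MS at 34 days. These arrays had 207, 163 and 191 detected miRNAs. Replicate 2 of MS at 34 days gave 19.6. Against CIA, the passenger strand in MS at 34 days differed by −1.85 on the scaled log2 scale (adjusted p = 0.126), and replicate 1, undetected, enters that value at the floor of 2.44.

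Among the 131 other miRNAs detected on all arrays, the scaled levels most like those of miR-21 over the 24 arrays were those of miR-192 (Pearson r = 0.57, Spearman rho = 0.50), miR-363 (0.52, 0.45), miR-30e* (0.52, 0.30), miR-29a (0.50, 0.35) and miR-221 (0.47, 0.25). The median r over the 131 was 0.067 and the lowest was −0.59. Over the 12 group means, the r of miR-192 was 0.78 and those of the others named were 0.30 to 0.36. Over the deviations of arrays from their group means, the r of miR-192 was 0.37 and those of the others named were 0.55 to 0.72. These values are a description of arrays that share the scaling. Without the 2 arrays farthest from the median of miR-21, MS at 1 hour replicate 1 and ANE at 1 hour replicate 2, the r of miR-192 was 0.36 and that of miR-221 was −0.020. None of the 5 was among the 5 most alike on unscaled values, where the median r was 0.79, or in the authors' table.

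Of 14 miRNAs known from inflammation and leukocytes that were listed beside miR-21, 13 had an entry of that name on the array (miR-155 had none) and 11 could be tested. miR-132 was detected on 2 arrays and miR-9 on none. In the 19 comparisons limma made 1 call among the 11, in MS at 34 days against CIA, where 19.0% of all 210 miRNAs were called, and 1 of 11 is not above that share. miR-223, the miRNA of neutrophils and monocytes, rose by 0.89 in MS at 34 days against CIA (SE 0.25, adjusted p = 0.0383), from 12.18 and 12.52 to 13.48 and 13.00. Without replicate 1 of MS at 34 days its adjusted p was 0.464, without the first or second CIA array 0.141 or 0.115, with the share of detected signal 0.0652, after quantile normalization 0.0960 and scaled over all miRNAs 0.182. In that comparison the median difference of the 11 was −0.62, against 0.16 over the 210.

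The labelled cell type was checked against marker miRNAs. The lymphocyte miRNAs miR-150 and miR-342-3p, the myeloid miR-223 and the leukocyte miRNAs miR-142-3p and miR-142-5p were detected on all 24 arrays. So were miR-451 and miR-144 of the red blood cell lineage and miR-126 of platelets and endothelium. Of the listed red cell markers, miR-486 had no entry of that name on the array. miR-1, miR-133a and miR-206 of muscle were detected on none, and miR-122 of liver on 9. The share of miR-150 ran from 0.316% to 5.77% and that of miR-223 from 2.14% to 5.65%. In bulk samples a change in the mix of cells and a change in the RNA of each cell cannot be told apart, and the part of either in the miR-21 values was not tested.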

How the data were processed

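Small RNA of rat PBMC was measured on 24 one-colour arrays. Per the labels, total RNA was labelled with Cy3, and per the file headers the scans were read with Feature Extraction 10.7.3.1. The authors deposited linear intensity values per spot and per miRNA, background-subtracted but not normalized between arrays, with a detection flag. The 12046 values of undetected miRNAs equalled their listed error. A further deposited table holds log2 values that the authors had processed, and the labels name RMA. All 24 of its columns correlated most with the array they are named for. Its column medians lay between 2.90 and 2.92, and its order of steps is not given in the sources used here.

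Groups and replicate numbers came from the labels. Total gene signals were scaled to the 75th percentile of the 132 miRNAs detected on all arrays, floored at 5.43 (2.44 on the log2 scale) and log2-transformed. The 210 miRNAs with a detection flag on 3 or more arrays were fitted with 12 group means (12 residual degrees of freedom) in limma 3.58.1 (R 4.3.3, lmFit and eBayes, two-sided), with Benjamini-Hochberg adjustment over the 210 and an adjusted p under 0.05 as the call. The script was tested on simulated data. Groups of 2 are too small for an exact test of one miRNA to reach 0.05. The number of arrays limits the precision.

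The arrays lay on 3 slides of 8, each scanned once, and each slide held 4 whole groups. Replicate numbers did not pair the arrays: over 66 pairs of groups, the deviations of same-numbered arrays had a median correlation of −0.034. Files hold the median and no mean spot signal, so the median was used in the spot-based alternatives. By rule, the miRNAs named with levels were miR-21, its passenger strand, the 5 miRNAs most alike, those brighter on at least 12 arrays (0) and called members of the inflammation list. Detection or shares are also given for undetected list members and cell markers, and miR-451 was named after its values were seen, as brighter on 3 arrays. miR-21 and these lists were chosen with earlier results of these data known.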

Additional observations from a re-analysis of the deposited data

How the results depend on the processing

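None of the 19 differences of miR-21 was called on the values scaled to the 75th percentile, and none became called, or changed its sign, without the filter on detection, over the 132 miRNAs detected on all arrays, with the compared arrays alone, at the study's threshold (over 2-fold, unadjusted p under 0.05), or with the replicate number as a block. Under the replicate block, MS at 34 days against CIA stayed at 0.0058 (adjusted p = 1) and F was 0.69 (adjusted p = 0.801). Replicate numbers did not pair the arrays. The differences that became called were MS at 34 days against CIA, with 1.20 without scaling, 1.47 by RMA and 1.48 in the authors' table, and MS against PLA at 34 days, with 1.10 without scaling. Without MS at 34 days replicate 2, an alternative added after seeing the data, they were 1.41 and 1.31 without scaling, 2.19 and 2.20 by RMA, and 2.19 and 2.18 in the authors' table. The study's threshold on the authors' table and RMA without the control spots were also added after seeing the data. That threshold was passed by MS against CIA (1.48), against PLA (1.46) and against MTX (1.16) at 34 days. The change of MS against that of NOCIA (1.21) passed it too. The cause of the differences between settings was not tested.

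Many of the small differences changed sign with the processing, all of them uncalled on both sides. CIA against NOCIA before therapy (0.20) became −0.13 by RMA without the control spots. NOCIA at 1 hour against before therapy (0.16) became −0.25 when scaled over all miRNAs, −0.061 as shares, −0.41 after quantile normalization and −0.17 by RMA without the control spots, and ran from −0.11 to 0.44 with 1 array left out. Against CIA at 1 hour, MS (−0.34) became 0.56 without scaling, 0.43 by RMA, 0.14 by RMA without the control spots and 0.45 in the authors' table (−0.77 to 0.094 with 1 array left out). MTX (−0.015) became 0.056 without scaling, 0.037 as shares, 0.0081 from median spots, 0.0058 with normexp, 0.13 by RMA, 0.20 without the control spots and 0.14 in the authors' table and by probe A_26_P00001211 (−0.087 to 0.057). PLA (−0.30) became 0.13 without scaling, 0.16 by RMA, 0.020 without the control spots and 0.20 in the authors' table, and ANE (0.21) ran from −0.021 to 0.45 with 1 array left out. NOCIA at 34 days against before therapy (−0.14) became 0.44 without scaling, 0.13 over all miRNAs, 0.24 by RMA and 0.27 in the authors' table. Against CIA at 34 days, MS (0.0058) became −0.19 over all miRNAs, −0.067 as shares and −0.12 by probe A_26_P00001210 (−0.082 to 0.094). MTX (−0.21) became 0.38 without scaling, 0.27 by RMA, 0.31 in the authors' table and 0.0027 by probe A_26_P00001211. ANE (−0.21) became 0.043, 0.033 and 0.077 without scaling, by RMA and in the authors' table, and PLA (−0.054) became 0.096 without scaling, 0.031 by RMA without the control spots, 0.017 in the authors' table and 0.13 by probe A_26_P00001211 (−0.33 to 0.22).

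At 1 hour, MS against PLA (−0.042) became 0.42 without scaling, 0.79 over all miRNAs, 0.14 as shares, 0.27 by RMA, 0.12 without the control spots and 0.25 in the authors' table (−0.47 to 0.39). MTX against PLA (0.28) became −0.077, −0.033 and −0.061 without scaling, by RMA and in the authors' table. PLA against NOCIA (−0.26) became 0.22 without scaling, 0.41 after quantile normalization, 0.14 by RMA, 0.057 without the control spots and 0.16 in the authors' table (−0.53 to 0.011). At 34 days, MS against PLA (0.060) became −0.17 over all miRNAs (−0.22 to 0.34). MTX against PLA (−0.16) became 0.29, 0.28 and 0.30 without scaling, by RMA and in the authors' table (−0.43 to 0.12). ANE against NOCIA (0.12) became −0.071 without scaling, −0.20 over all miRNAs, −0.011 as shares, −0.41 after quantile normalization, −0.13 by RMA and in the authors' table and −0.30 without the control spots (−0.0100 to 0.26). The change of MS against that of NOCIA (0.14) became −0.33 over all miRNAs. Among uncalled values that kept their sign, those over 1.5 times from the scaled fold were PLA at 1 hour against CIA, at −1.25 when scaled over all miRNAs (unadjusted p = 0.00543, adjusted p = 0.0752 by limma), MTX at 1 hour against CIA, at −0.65 in that setting, MS against MTX at 34 days, at 0.82 without scaling, 1.20 by RMA and 1.16 in the authors' table, the change of MS against that of NOCIA, at 0.75 without scaling, 1.23 by RMA and 1.21 in the authors' table, and MS against PLA at 34 days, at 1.48 by RMA and 1.46 in the authors' table. Quantile normalization of the miRNA signals leaves miR-21 only 2 values, 14.75 and 13.94, since it was first or second on every array. The median share of miR-21 was 12.3% of the detected signal, 12.2% of the signal of all miRNAs and 22.8% without the 10 brightest others, and it was the brightest on 21 arrays also by its brightest probe. The number of called miRNAs in MS at 34 days against CIA, 40 on the scaled values, was 132 without scaling, 130 from median spots, 133 with normexp, 83 by RMA, 70 in the authors' table, 65 over the 132 miRNAs, 61 with the replicate block, 8 after quantile normalization and 0 by limma as shares, scaled over all miRNAs, without the filter or with the compared arrays alone, where 51 to 108 miRNAs had an unadjusted p under 0.05.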
